A study of Mus musculus with 4 samples.

Results

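Fatty acid oxidation genes were examined in 4T1 cells sorted for high or low mitochondrial membrane potential (MMP). A fixed list of 33 genes was looked up by symbol, and 31 of them had a row among the 20197 genes of the table. By the location of the enzyme, 21 of these 31 were counted as mitochondrial and 4 as peroxisomal. The other 6 (*Acsl1*, *Acsl4*, *Acsl5*, *Acad11*, *Eci2* and *Ech1*) act at several locations and were kept apart. *Ehhadh*, the bifunctional enzyme of peroxisomes, and *Ppara*, the nuclear receptor that drives many genes of this pathway, were not analysed here beyond their promoters. The lookup used gene names only, but the list was drawn up with earlier results of these data known.

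4T1 is a wild-type mouse mammary cancer line that forms metastases in the lung. All cells of both groups were grown in the same serum-containing medium and carried the same dye, 20 nM MitoSpy Red, which gathers in mitochondria with a high potential. High MMP cells were the brightest 5% and low MMP cells the dimmest 5% of the sort, with 2 samples each, 100000 cells per sample and 200 ng of RNA in each stranded mRNA library. The groups are therefore the tails of 1 cultured line, without a middle group or an unsorted control. Per the study's legends, the 2 samples of a group came from independent experiments.

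Fatty acids are first joined to coenzyme A by acyl-CoA synthetases. Long chains enter mitochondria as carnitine esters, and each round of beta-oxidation then removes an acetyl-CoA through dehydrogenation, hydration, a further dehydrogenation and thiolysis. The first step passes electrons through the electron transfer flavoprotein to ubiquinone. Peroxisomes run a similar cycle on very long and branched chains, but their first enzyme is an oxidase that hands electrons to oxygen. The study asked how metastasis-initiating cells use fatty acids, and the comparison of high with low MMP cells shows whether transcripts of these enzymes differ with membrane potential.

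Values are normalized reads per gene, with each library scaled to a total of 20000000. Between 22591970 and 26395015 recovered reads per library lay behind them. Markers of the epithelial lineage were high, with 6 markers summing to 37240 to 49790, whereas immune, endothelial and adipocyte markers with a row summed to 0 to 16 reads per library. Of the 3 fibroblast markers with a row, *Pdgfrb* and *Dcn* reached at most 10.5, and *Pdgfra* had 319 and 363 in high MMP and 536 and 589 in low MMP cells. Cell-cycle transcripts moved with the groups: 12 genes of the G2 and M phases summed to 95780 and 103500 in high MMP cells against 65800 and 68750 in low MMP cells, and 12 genes of the S phase to 48630 and 36740 against 57090 and 59300. Their part in the results below was not tested.

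No gene of fatty acid oxidation differed between high and low MMP cells at an adjusted p under 0.05 in limma, where the share called over all genes was 0.00%. The adjusted p of the 31 genes ran from 0.472, which was also the smallest over all genes, to 0.994. At an unadjusted p under 0.05 there was 1 gene, *Acad11*, against 9.96% of all genes in the table. Of the 12902 genes that averaged 10 or more normalized reads, as all 31 did, 984 were under it. Differences on the log2(value + 1) scale, high minus low MMP, lay between -0.41 for *Acad10* and 0.46 for *Acad11*, and their median was -0.02, beside -0.03 over the 12902 genes that averaged 10 or more normalized reads, called measured genes below. In 28 of 31 genes the 95% interval of the difference stayed inside a 2-fold change either way, which held for 82.1% of measured genes. The 3 with wider intervals were *Acad10*, *Etfb* and *Acot2*. In total 11 genes had a positive and 20 a negative difference, beside 5403 and 7499 of measured genes. With median-of-ratios scaling the split was 17 to 14, beside 6633 to 6269 of measured genes. The side on which the small differences fell thus depended on the scaling.

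**Figure D1:**
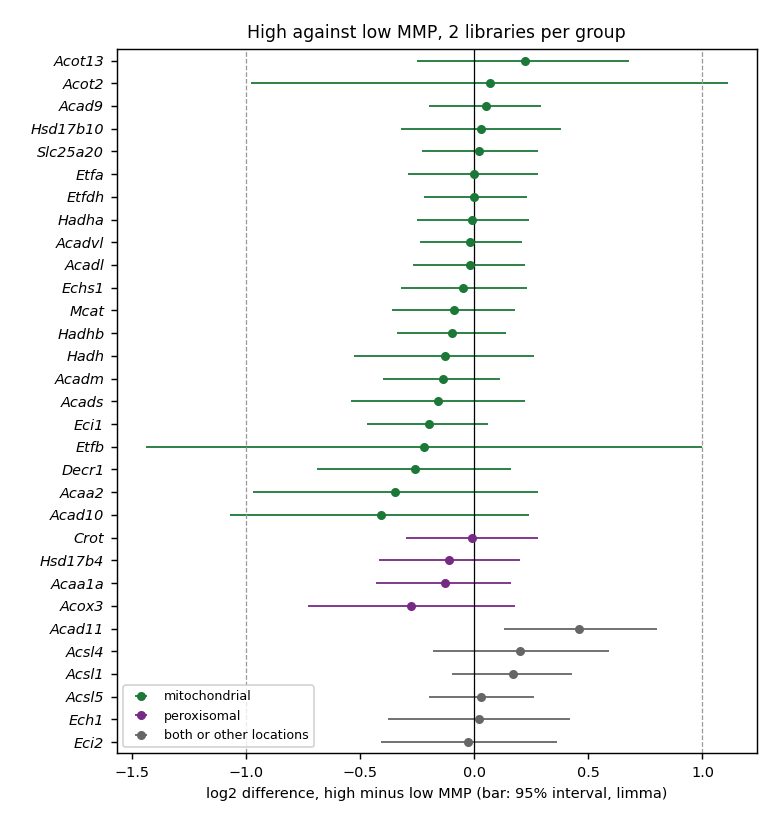
Log2 difference between high and low MMP cells (horizontal axis, log2(value + 1) scale) for each gene, with its 95% interval from limma (2 libraries per group); dashed lines mark a 2-fold change. The differences run from -0.41 to 0.46, and only the interval of *Acad11*, 0.13 to 0.80, leaves out 0.

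The groups did not overlap in 10 of 31 genes. In 2 of them, *Acsl1* and *Acad11*, both high MMP libraries lay above both low MMP libraries, an arrangement found in 14.3% of measured genes. In 8 of them, *Acadm*, *Acad10*, *Hadhb*, *Eci1*, *Decr1*, *Mcat*, *Acox3* and *Acaa1a*, both high MMP libraries lay below, as in 23.7% of measured genes. Either order was found in 38.0% of them. Because RNA was taken from whole populations, fewer cells with a transcript and less RNA per cell cannot be told apart here or in any value below.

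**Figure D2:**
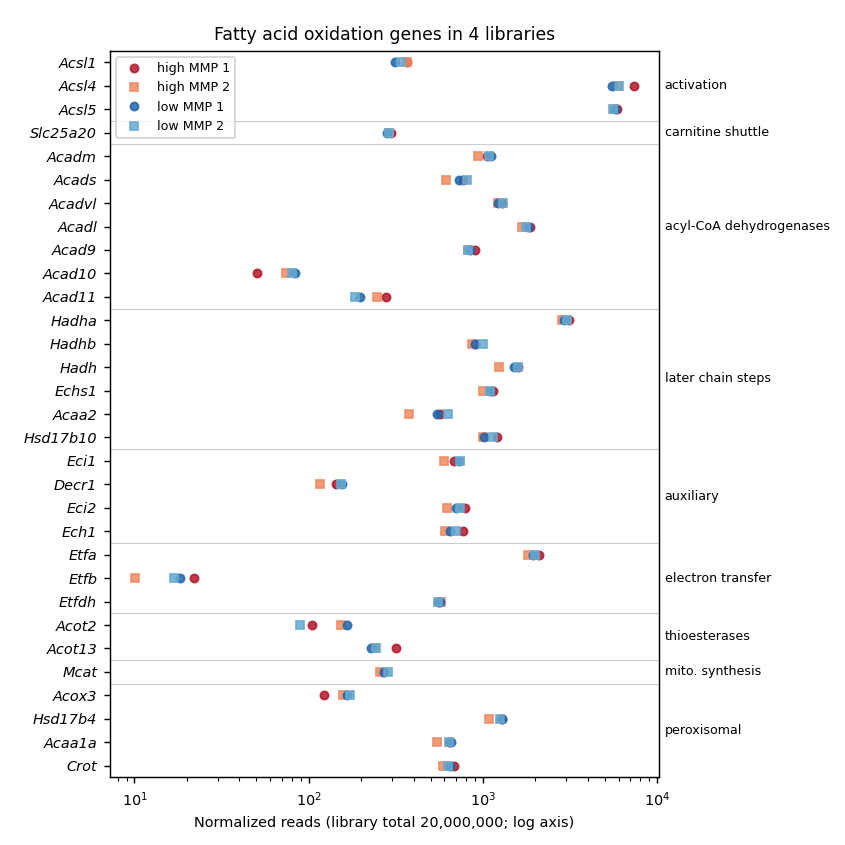
Normalized reads (horizontal log axis, library total 20000000) of the 31 genes in each of the 4 libraries, grouped by role; a point is 1 library. Levels span 10.0 for *Etfb* in high MMP 2 to 7364 for *Acsl4* in high MMP 1, and for most genes the 4 points lie close together.

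Synthetases activate fatty acids for every later step. Per kilobase of transcript, *Acsl5* at a mean of 1342 and *Acsl4* at 1174 stood near the top of the 31 genes, below *Etfa* at 1403, whereas *Acsl1* was at 88.8. *Acsl4* (ENSMUSG00000031278, GRCm38 chromosome X, 142317993 to 142390535), which prefers arachidonate and other polyunsaturated chains, had 7364 and 5933 normalized reads in the high MMP and 5486 and 6004 in the low MMP libraries. High MMP 1 stood above the other 3 libraries, which overlapped. The difference was 0.20 (SE 0.14, 95% interval -0.18 to 0.59). *Acsl5* had 5890 and 5613 in high MMP and 5704 and 5563 in low MMP libraries, which differed by 0.03 (SE 0.08). *Acsl1*, a long-chain synthetase tied to oxidation and storage, had 365 and 367 normalized reads in high against 312 and 340 in low MMP cells. Its groups did not overlap, yet the difference of 0.17 (SE 0.10) had an interval of -0.10 to 0.43 and an adjusted p of 0.690 in limma.

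*Slc25a20*, the carrier that takes acylcarnitines across the inner membrane in exchange for carnitine, varied little among the libraries. It had 296 and 287 against 282 and 290 in low MMP cells. The groups overlapped and differed by 0.02 (SE 0.09), with an interval of -0.23 to 0.28. The enzymes on either side of it gave 446 and 359 against 473 and 433 for *Cpt1a*, which makes the carnitine esters, and 405 and 385 against 398 and 369 for *Cpt2*, which reverses that step in the matrix.

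Acyl-CoA dehydrogenases open each cycle and differ in the chain length they take. Per kilobase of the longest coding transcript, the mean level over the 4 libraries was 926 for *Acadl*, 578 for *Acadvl*, 512 for *Acadm*, 391 for *Acads*, 215 for *Acad9*, 65.7 for *Acad11* and 18.8 for *Acad10*. *Acadl* and *Acadvl*, for long and very long chains, were thus above *Acadm* and *Acads*, and the other 3 were below. *Acadl* had 1859 and 1667 normalized reads in high and 1802 and 1771 in low MMP cells, and *Acadvl* had 1279 and 1212 against 1223 and 1296. Both differed by -0.02 (SE 0.09 and 0.08). *Acad9*, which also helps to assemble respiratory complex I, had 903 and 818 against 844 and 820. Of the exon bases of *Acadvl*, 42.9% overlap those of *Dvl2* on the opposite strand, and since the strand setting of the counting is not stated, its level is uncertain.

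*Acadm*, the medium-chain dehydrogenase whose loss is a common inborn error of fatty acid oxidation, is on chromosome 3 (ENSMUSG00000062908, 153922357 to 153944632). It had 1053 and 938 in high MMP and 1113 and 1084 in low MMP cells. Both high MMP libraries were below both low MMP libraries, by -0.14 (SE 0.09, interval -0.40 to 0.11, adjusted p 0.725 in limma). Promoters were searched for 27 of the 33 listed genes, including *Ehhadh* and *Ppara*. Those of *Acaa2*, *Acot13*, *Decr1*, *Acad9*, *Mcat* and *Hsd17b4* were not searched. The upstream sequence of *Acadm* is shown because it alone of the 27 held AAGGTCA. This element is known for estrogen-related receptors, which control many genes of oxidative metabolism. The capitals mark the match, which reads AAGGTCA on the other strand and ends 243 bases before the first base (250 bases at chr3:153944644-153944893, minus strand, RefSeq, GRCm38.p6).
Acadm: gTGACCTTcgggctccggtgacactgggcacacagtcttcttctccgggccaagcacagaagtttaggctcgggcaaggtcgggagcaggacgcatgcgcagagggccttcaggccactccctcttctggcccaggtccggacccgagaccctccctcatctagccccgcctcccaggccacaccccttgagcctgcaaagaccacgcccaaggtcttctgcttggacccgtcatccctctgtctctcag
Of the 32851 RefSeq promoters that were searched, 4.72% held this motif on either strand, against 3.7% of the 27. The direct repeat of AGGTCA with a spacer of 1 base is the DR1 element that PPAR and RXR receptors bind. It was searched on both strands and could overlap the first motif. Of the 27 genes 0 held it, and of the searched promoters 0.0396% did. These windows run from 250 bases before to 50 after a gene's start, and absence of the letters says nothing of receptor binding.

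*Acads*, for short chains, had 766 and 617 against 731 and 809, and the groups overlapped because high MMP 1 lay between the low MMP libraries, while high MMP 2 lay below both. *Acad10* was scarce, at 50.8 and 73.6 in high and 83.7 and 79.7 in low MMP cells. High MMP 1 was lowest here, and the difference of -0.41 (SE 0.24) had an interval of -1.07 to 0.24 with 341 reads over all 4 libraries.

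*Acad11* gave the largest positive difference of the group. It is on chromosome 9 (ENSMUSG00000090150, 104063377 to 104127725) and encodes a dehydrogenase of long chains. It had 278 and 247 normalized reads in the high MMP and 196 and 183 in the low MMP libraries, so that both high MMP libraries lay above both others. The means were 262 ± 22.1 and 190 ± 9.12 (SD, n = 2 each), 1.38-fold apart, with a log2 difference of 0.46 (SE 0.12, interval 0.13 to 0.80). The unadjusted p in limma was 0.0169 and the adjusted p 0.472. Blocking on the labelled replicate number gave an adjusted p of 0.798. On recovered reads it was 0.689 in edgeR, 0.708 in edgeR with that block and 0.686 in DESeq2. It was 0.0113 in edgeR when high MMP 1 was paired with low MMP 2 instead, a crossed pairing chosen after seeing the data. These fits called 0.525% (edgeR with the labelled block), 0.985% (DESeq2) and 3.63% (crossed) of all genes tested, and *Acad11*, in the crossed fit, was the only call among the 31.

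The later steps of the chain are carried out by the trifunctional protein, built from *Hadha* and *Hadhb*, and for shorter chains by separate enzymes. *Hadha* (ENSMUSG00000025745, chromosome 5, 30118304 to 30155162) had 3118 and 2827 in high and 2930 and 3041 in low MMP cells. The libraries overlapped and differed by -0.01 (SE 0.09, interval -0.25 to 0.24). *Hadhb* (ENSMUSG00000059447, chromosome 5, 30155248 to 30184593) had 900 and 868 against 902 and 994, a difference of -0.10 (SE 0.09, interval -0.34 to 0.14). The high MMP libraries were below the low MMP libraries for *Hadhb*, though high MMP 1 and low MMP 1 were close. Per kilobase, *Hadha* exceeded *Hadhb* 1.77 and 1.66 times in high and 1.66 and 1.56 times in low MMP libraries. The genes lie head to head on opposite strands, and the 85 bases between their annotated ends are shown because transcription of both subunits starts around them (chr5:30155163-30155247, plus strand, RefSeq, GRCm38.p6). The run has no capitals, since neither motif occurs in it.
Hadha and Hadhb: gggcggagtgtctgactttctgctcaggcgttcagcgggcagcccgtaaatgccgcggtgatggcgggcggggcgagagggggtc
Of these bases 69.4% are G or C.

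*Hadh*, the short-chain hydroxyacyl-CoA dehydrogenase, had 1588 and 1236 in high and 1496 and 1582 in low MMP cells, and *Echs1*, the short-chain enoyl-CoA hydratase, had 1143 and 994 against 1103 and 1099. *Hsd17b10*, a dehydrogenase that is also part of the mitochondrial RNase P, had 1197 and 1001 against 1008 and 1135. In each of these high MMP 1 was highest and high MMP 2 lowest. *Acaa2*, the mitochondrial thiolase, showed the widest gap between the high MMP libraries among these chain-step genes on the log2 scale, with 565 and 375 against 542 and 630. Its difference was -0.35 (SE 0.23, interval -0.97 to 0.28).

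Auxiliary enzymes reshape double bonds so that unsaturated chains can enter the cycle. *Eci1*, the mitochondrial enoyl-CoA isomerase, had 678 and 598 in high and 727 and 739 in low MMP cells. *Decr1*, the dienoyl-CoA reductase, had 142 and 116 against 155 and 154. In both the high MMP libraries were below, by -0.20 (SE 0.10, interval -0.47 to 0.06) and -0.26 (SE 0.16, interval -0.69 to 0.16), with adjusted p of 0.628 and 0.699 in limma. *Eci2* and *Ech1*, which serve mitochondria and peroxisomes, did not share this order. *Eci2* had 793 and 625 against 700 and 736, and *Ech1* had 765 and 603 against 643 and 698, so that the high MMP libraries enclosed the low MMP libraries in both.

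Electrons of the first step leave through the flavoprotein made of *Etfa* and *Etfb* and its oxidoreductase *Etfdh*. *Etfa* had 2099 and 1807 in high and 1927 and 1980 in low MMP cells, differing by -0.0047 with an interval of -0.29 to 0.28. *Etfdh* had 552 and 574 against 569 and 553, and its difference of 0.0049 (SE 0.08) was the closest to 0 after that of *Etfa*. *Etfb* (ENSMUSG00000004610, chromosome 7, 43444083 to 43457800) had only 29 and 12 reads in the high MMP and 21 and 19 in the low MMP libraries, or 22.0, 10.0, 18.3 and 16.8 normalized reads. The exact Poisson 95% intervals, which cover counting error only, were 14.7 to 31.6 and 5.2 to 17.5 in high MMP cells. In low MMP cells they were 11.3 to 28.0 and 10.1 to 26.3. All 4 intervals overlapped, which is not a test of a difference between libraries. Although the products of *Etfa* and *Etfb* form a dimer, *Etfa* exceeded *Etfb* per kilobase 61.3 and 115 times in high and 67.5 and 75.5 times in low MMP libraries. Of the annotated exon bases of *Etfb*, 53.0% are shared with *Gm45233*, an overlapping gene on the same strand that had no row in the table. How reads in shared bases were counted is not stated, and the part of this overlap in the low level was not tested.

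**Figure D3:**
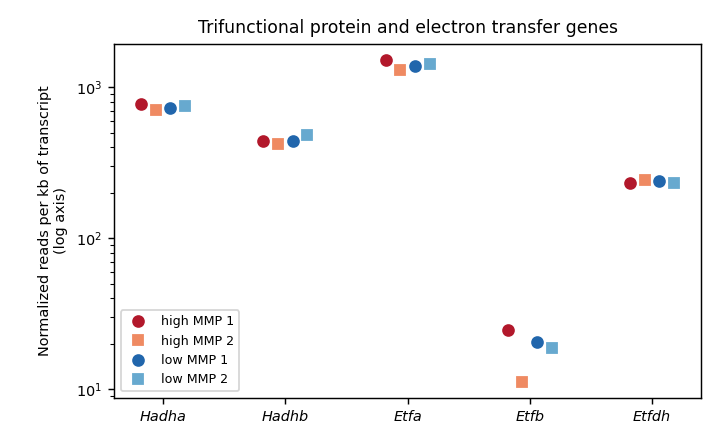
Normalized reads per kilobase of the longest coding transcript (vertical log axis) for the subunits of the trifunctional protein and the electron transfer genes; each point is 1 of 4 libraries. *Etfb* averages 18.8, while *Etfa* averages 1403 and *Etfdh* 236.

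Thioesterases release fatty acids from coenzyme A. *Acot13* had 315 and 238 in high and 228 and 243 in low MMP cells. Its difference of 0.22 (SE 0.17, interval -0.25 to 0.68) was 0.02 without high MMP 1. *Acot2*, the form of the matrix, differed more within groups than between them, with 104 and 154 against 165 and 88.5. It has close paralogs, of which *Acot1* had 59.1 and 47.7 against 73.2 and 65.5, and how reads that fit both were counted is not stated. *Mcat*, a transferase of mitochondrial fatty acid synthesis and not of oxidation, had 267 and 256 against 272 and 285, with a difference of -0.09 (SE 0.10).

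All 4 peroxisomal genes had a negative difference, from -0.28 to -0.01, and none passed the test. *Acox3*, the oxidase for branched chains, had 123 and 156 in high and 165 and 172 in low MMP cells, and the groups differed by -0.28 (SE 0.17, interval -0.73 to 0.18). *Acaa1a*, the peroxisomal thiolase, had 636 and 546 against 652 and 637 and a difference of -0.13 (SE 0.11). In both, the high MMP libraries were below. Its close paralog *Acaa1b* had 42.4 and 40.2 against 34.0 and 45.1, and how reads that fit both were counted is not stated. *Hsd17b4*, the D-bifunctional protein, had 1283 and 1075 against 1279 and 1255, and *Crot*, which makes medium-chain acylcarnitines for export from peroxisomes, had 680 and 588 against 645 and 627, so that these groups overlapped. Without high MMP 2 the median of the 4 was 0.0 and 2 of them were positive, and with median-of-ratios scaling *Crot* was at 0.03.

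The contrast between mitochondrial and peroxisomal enzymes was small and was not kept when high MMP 1 was left out. The median difference was -0.05 over the 21 mitochondrial genes (15 negative) and -0.12 over the 4 peroxisomal genes, beside -0.03 over all measured genes. Of those 12902 measured genes, 7499 were negative. With median-of-ratios scaling the mitochondrial genes split into 10 positive and 11 negative. The mean log2 level of mitochondrial minus peroxisomal genes was 0.0677 and -0.0178 in the high MMP and -0.0248 and -0.0185 in the low MMP libraries. Both high MMP libraries were above both low MMP libraries, but high MMP 2 lay close to low MMP 2, and without high MMP 1 the contrast of the groups fell from 0.05 to 0.0. Of the 4 peroxisomal genes, *Acox3* had the largest difference between the groups, at -0.28. From high MMP 2 to high MMP 1 it differed by -0.35 on the log2 scale, and the other peroxisomal genes by 0.21 to 0.25. Among the mitochondrial genes, *Etfb*, with 81 reads in all, differed most between these libraries, by 1.06. The part of *Acox3* and *Etfb* in the contrast was not tested. Among the further pathway genes described below that averaged 10 or more, the median difference was -0.06 for 13 mitochondrial and -0.05 for 31 peroxisomal genes. No p is given, since the genes were chosen with earlier results of these data known.

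The larger spread was between the high MMP libraries. High MMP 2 was the lowest of the 4 libraries in 21 of 31 genes, whereas it was the lowest in 29.3% of measured genes. High MMP 1 was the highest in 17 of 31, beside 28.4% of those genes. The median distance between the high MMP libraries was 0.22 on the log2 scale and that between the low MMP libraries 0.07, beside 0.21 and 0.11 over measured genes, and the median size of the group difference was 0.10. The median deviation from a gene's own mean was 0.07 in high MMP 1, -0.09 in high MMP 2, 0.01 in low MMP 1 and 0.05 in low MMP 2. Directions followed this: without high MMP 1, 7 of 31 genes had a positive difference, and without high MMP 2, 19 did. Protein-coding transcripts of the mitochondrial genome took 1.27% of reads in high MMP 1, 2.14% in high MMP 2, 2.02% in low MMP 1 and 2.24% in low MMP 2, so that high MMP 1 had the lowest share. Its depth was also the highest, at 26395015 reads against 22591970 to 23899813. The part of these in the spread was not tested.

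**Figure D4:**
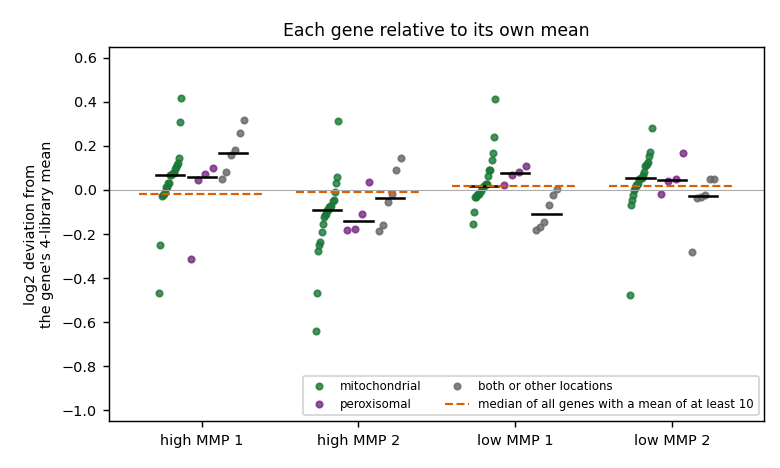
Log2 deviation of each gene from its own mean over the 4 libraries (vertical axis) by library and enzyme location; black bars are medians and dashed lines the median of all measured genes. Mitochondrial genes sit mostly above 0 in high MMP 1 and below 0 in high MMP 2, with medians of 0.07 and -0.09.

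Beyond the enzymes above, 82 further genes of uptake, storage, transport, peroxisomes and control were in the table, of 92 listed. None passed at an adjusted p under 0.05 in limma, and 7 had an unadjusted p under 0.05 (all genes, 9.96%). Of these 7, 4 averaged 10 or more, beside 984 of the 12902 measured genes. Of the 71 that averaged 10 or more, 26 had a positive and 45 a negative difference, with a median of -0.06. Over measured genes, 5403 were positive and 7499 negative, with a median of -0.03. Genes among those with the smallest p in each direction follow. *Angptl4*, a PPAR target that inhibits lipoprotein lipase, had 49.3 and 36.8 in high against 21.8 and 28.3 in low MMP cells (0.75, SE 0.28, 166 reads in all). Of the 9 listed PPAR alpha targets with a row, some with few reads, 2 had a positive and 7 a negative difference (median -0.15). *Lipa*, the lysosomal acid lipase, had 309 and 330 against 251 and 288 (0.25, SE 0.12). In the other direction, *Pex2*, part of the peroxisomal import machinery, had 654 and 731 against 889 and 883 (-0.36, SE 0.09).

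*Acsl3*, the synthetase of lipid droplets and the endoplasmic reticulum, had 1304 and 1631 in high and 2001 and 2019 in low MMP cells (-0.46, SE 0.13). *Nudt19*, a peroxisomal hydrolase of coenzyme A, had 527 and 510 against 622 and 593 (-0.23, SE 0.08). The groups did not overlap in any of these 5 genes, but they were picked by small p in the same libraries, which favours such an order. Over measured genes, 38.0% did not overlap. The adjusted p of the 5 genes in limma lay between 0.472 and 0.624. *Acsl3* alone among the 5 passed in edgeR with crossed replicate numbers, at an adjusted p of 0.00597, and its adjusted p was 0.870 with the labelled numbers. Of the rest of the further list, *Abcd4* (0.000249), *Txnip* (0.000367) and *Slc27a3* (0.0292) also passed this crossed edgeR fit, all lower in high MMP cells. With the labelled numbers their adjusted p in edgeR was 0.224, 0.273 and 0.751. The crossed fit called 3.63% of all genes.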

How the data were processed

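RNA was measured in 4 samples of sorted 4T1 cells, 2 of high and 2 of low MMP, grouped by their titles. The authors used STAR for alignment to the mouse transcriptome (builds named as GRCm38 and mm10), summed reads by gene, scaled each library by its size and kept genes detected in 2 or more samples. HTSeq is also named in the submitters' processing notes, and versions are not given in the sources used here. The deposited values are a normalized signal per gene with columns summing to 20000000. They were whole multiples of 1 step in 100.0% of cases (tolerance 0.02), so whole reads were recovered. It held 0 columns of other samples. Identifiers were matched to GENCODE M21 (19993 of 20197), and transcript lengths and overlaps were taken from it.

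log2(value + 1) was tested with limma 3.58.1 (eBayes with trend, R 4.3.3) over all genes, with Benjamini-Hochberg adjustment at 0.05. Intervals are 95% from the same fit. Alternatives were other pseudocounts, filters, scalings and variance models, a replicate block, each library left out, and edgeR 4.0.16 and DESeq2 1.42.0 on recovered reads. The members and lists were chosen with earlier results of these data known. All members are named, with the 3 genes of smallest p in each direction (mean of at least 10) from a list of 92 further genes, except 1 that is not reported here. Protein sequences were not used here.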

Additional observations from a re-analysis of the deposited data

How the results depend on the processing

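No gene was called in limma under any pseudocount, filter, scaling or block, nor in edgeR without a block, nor with any library left out in limma (2011 genes in limma and 1423 in edgeR were at an unadjusted p under 0.05). On recovered reads the replicate block in edgeR gave 106 called genes, DESeq2 118 and edgeR 733 with crossed numbers as the block, a fit chosen after seeing the data. Of the 31 fatty acid oxidation genes, 0 were called in the first and second of these and 1, *Acad11* (0.51), in the crossed fit. The cause was not tested. Whether replicate numbers pair the samples is not stated, and the deviations of same-numbered samples correlated at -0.421 over 12902 genes, which are not independent replicates. The replicate block in limma left every log2 difference as it was and gave a smallest adjusted p of 0.798.

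With all libraries kept, 6 genes within 0.03 of 0 took the other sign under another scaling or on recovered reads: *Acadvl* (0.0046, 0.02 and 0.03), *Acadl* (0.02), *Hadha* (0.03 and 0.04), *Eci2* (0.0027, 0.01 and 0.02), *Etfa* (0.01, 0.03 and 0.04) and *Crot* (0.03 and 0.04). The scaling or tool is what was altered, and size factors ran from 0.982 to 1.019. Leaving out each library in turn, with the lone sample assumed to vary like the other group, changed the sign of 16 of 31 genes. Their ranges were -0.01 to 0.06 for *Acsl5*, -0.06 to 0.03 for *Acadvl*, -0.1 to 0.06 for *Acadl*, -0.02 to 0.12 for *Acad9*, -0.08 to 0.06 for *Hadha*, -0.32 to 0.05 for *Hadh*, -0.15 to 0.05 for *Echs1*, -0.1 to 0.16 for *Hsd17b10*, -0.2 to 0.14 for *Eci2*, -0.15 to 0.19 for *Ech1*, -0.11 to 0.1 for *Etfa*, -0.75 to 0.31 for *Etfb*, -0.02 to 0.03 for *Etfdh*, -0.38 to 0.51 for *Acot2*, -0.24 to 0.02 for *Hsd17b4* and -0.11 to 0.1 for *Crot*. The median of the peroxisomal genes ran from -0.17 without high MMP 1 to 0.0 without high MMP 2, and that of the mitochondrial genes from -0.12 to 0.02 without the same libraries. The other 15 genes kept their sign, but most moved by over 1.5 times. Without high MMP 1 and without high MMP 2, in that order, the difference was -0.64 and -0.05 for *Acaa2*, -0.32 and -0.01 for *Acads*, -0.41 and -0.12 for *Decr1*, -0.29 and -0.11 for *Eci1*, -0.24 and -0.02 for *Acaa1a*, -0.23 and -0.06 for *Acadm*, -0.15 and -0.68 for *Acad10*, -0.1 and -0.45 for *Acox3*, 0.05 and 0.36 for *Acsl4*, 0.02 and 0.42 for *Acot13* and 0.38 and 0.55 for *Acad11*. The ranges were 0.11 to 0.23 for *Acsl1*, 0.0033 to 0.05 for *Slc25a20*, -0.17 to -0.03 for *Hadhb* and -0.12 to -0.06 for *Mcat*. Depth limits *Etfb*, with 81 reads in all.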
